A study of Mus musculus with 160 samples.

Results

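Granulocyte granule and S100 genes were followed in cells sorted from the aorta-gonads-mesonephros (AGM) region of the mouse embryo. They are 10 of the 46078 genes counted, namely *S100a8*, *S100a9*, *BC100530*, *Stfa1*, *Stfa2*, *Stfa3*, *Mpo*, *Elane*, *Prtn3* and *Ctsg*, and were matched to the Ensembl IDs of the count table by symbol. The genes were chosen by their measured levels in *Gata3*-GFP- against *Gata3*-GFP+ hematopoietic cells, so values for that comparison are given as a description, with no test of these 10 genes. RNA was sequenced from pools of 20 cells, 20 pools for each of 8 populations, and 153 of the 160 pools passed the quality limits of the study. All embryos carried the *Gata3*-GFP knockin reporter (genotype *Gata3*-GFP +/-), so no population came from embryos without it, and each cell type was split by GFP into a *Gata3*-GFP+ and a *Gata3*-GFP- fraction. Endothelial cells (ECs, Cdh5+ CD41- CD45-) and hematopoietic cells (HCs, CD41+ CD45+ in the design text, CD41/45+ in the methods) were taken at E10.5, and mesenchymal cells (MCs, Pdgfrb+) and cells of the sympathetic nervous system (SNS, Ngfr+) at E11.5. Cells of several embryos were pooled before sorting, and neither the labels nor the column headers tie a pool to its embryos, so errors and p-values measure the spread between pools. By the methods, the pools of a population were sorted from a few biological replicates, so pools share embryos, n counts pools rather than embryos, and p-values over pools are too small.

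Neutrophil granulocytes make their granule proteins in a fixed order as they mature. The peroxidase MPO and the serine proteases ELANE, PRTN3 and CTSG are made first, at the promyelocyte stage, and are stored in the azurophil granules. Proteins of the later, specific granules, such as the antimicrobial peptide precursor CAMP and the iron-scavenging lipocalin LCN2, follow. S100A8 and S100A9 are calcium-binding proteins that pair as calprotectin and fill the cytosol of neutrophils and of some monocytes, while the stefins, encoded in the mouse by a run of related genes that includes *BC100530* and *Stfa1* to *Stfa3*, inhibit cysteine proteases of the cathepsin family.

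Of the 10 genes 9 belong to 3 sequence families, and *Mpo* to none of them. In the GENCODE annotation of GRCm38, *S100a8* (chr3:90668978-90670035) and *S100a9* (chr3:90692632-90695721) are 22596 bases apart with no coding gene between them, and their coding sequences are 49.6% identical. *Prtn3* (chr10:79874476-79883174) and *Elane* (chr10:79886247-79888215) are 3072 bases apart with coding sequences 60% identical, whereas *Ctsg*, of the same protease family, lies at chr14:56099881-56102574 and *Mpo* at chr11:87793581-87804413. The stefin genes share chromosome 16, with *Stfa1* at chr16:36276951-36285373, *BC100530* at chr16:36359382-36367748, *Stfa2* at chr16:36403992-36408457 and *Stfa3* at chr16:36450537-36455392. Among the stefins, coding identity ran from 57.2% for *Stfa1* and *Stfa2* to 80.9% for *Stfa2* and *Stfa3*. Identity here and above was taken over the whole alignment, gaps included. The annotated coding sequence of *Stfa1* has 384 bases, against 291 in *BC100530* and 309 in *Stfa2* and *Stfa3*. Its extra bases thus lower its values, such as the 74.2% of *BC100530* and *Stfa1*, below the identity where the sequences align. One stretch of 72 coding bases is shown for the 4 stefins because it carries the likeness that a read has to resolve, with capitals where a base differs from *Stfa1*. The differences number 2 in *BC100530*, 8 in *Stfa3* and 11 in *Stfa2*, and the sequences were read from GENCODE transcripts on GRCm38.
Stfa1: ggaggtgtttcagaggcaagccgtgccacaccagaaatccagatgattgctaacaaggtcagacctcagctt
BC100530: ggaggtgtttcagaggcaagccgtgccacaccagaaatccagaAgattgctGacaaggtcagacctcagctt
Stfa3: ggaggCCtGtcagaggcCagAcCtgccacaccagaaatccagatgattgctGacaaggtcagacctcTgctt
Stfa2: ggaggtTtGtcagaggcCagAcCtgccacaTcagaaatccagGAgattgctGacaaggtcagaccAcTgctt
Of the 495 windows of the length of a read in the *BC100530* transcript, 41 (8.28%) are found unchanged in a transcript of another gene (*BC117090*, *Gm15845* or *Stfa1*), against 0 windows for the coding transcripts of *Stfa1*, *Stfa2* and *Stfa3*. A single coding transcript per gene was searched, so windows in other *Stfa1* transcripts were not counted for *Stfa1*. The levels of *BC100530* and of the genes that share its windows are therefore uncertain to the extent that these reads were counted. Of the exon bases of *BC100530*, 18.4% also lie opposite *Gm15845*.

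Promoters were compared because several of the genes varied together across pools. The stretch upstream of the RefSeq start, cut before the first GENCODE exon base within it, is shown for the 4 genes in which the 8 letters GAGGAAGT, a core of the sites bound by the myeloid transcription factor PU.1, were found on either strand (GRCm38.p6, RefSeq starts, match in capitals).
Mpo, chr11:87793534-87793580, + strand: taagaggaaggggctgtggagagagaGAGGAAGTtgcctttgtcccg
Elane, chr10:79886062-79886246, + strand: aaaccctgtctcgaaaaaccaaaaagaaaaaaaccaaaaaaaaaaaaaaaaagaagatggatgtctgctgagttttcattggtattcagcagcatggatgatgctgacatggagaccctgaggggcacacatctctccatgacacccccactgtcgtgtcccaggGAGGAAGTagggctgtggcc
Prtn3, chr10:79879417-79879613, + strand: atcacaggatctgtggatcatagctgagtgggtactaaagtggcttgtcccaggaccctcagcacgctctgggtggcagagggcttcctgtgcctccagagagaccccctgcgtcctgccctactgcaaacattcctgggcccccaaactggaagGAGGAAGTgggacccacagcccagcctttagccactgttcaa
S100a8, chr3:90668821-90668977, + strand: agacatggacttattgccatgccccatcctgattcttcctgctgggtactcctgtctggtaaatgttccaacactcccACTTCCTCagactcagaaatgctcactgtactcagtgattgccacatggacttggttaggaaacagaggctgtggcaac
The match began 21 bases before that exon base in *Mpo*, 20 in *Elane*, 42 in *Prtn3* and 79 in *S100a8*. Of the 9 genes with a promoter entry 4 held these letters within 250 bases, against 2.44% of 32851 mouse promoters. For other factors of blood cells, a C/EBP core (letters TTGCNNAA) was found in 2 of the 9 promoters and in 9.56% of all promoters. A GATA core, spelled AGATAA, was found in 3 of the 9 (9.99% of all). A RUNX core, which was searched as TGTGGT, was found in 5 of the 9 (14% of all). The MYB core used here, CAACTG, was found in 1 of the 9 (11.1% of all). Both strands were searched. A match is a run of letters and says nothing about binding.

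The sorting genes were checked in each fraction. Within HCs, the median of *Gata3* was 44 CPM in the *Gata3*-GFP+ fraction (range 12.4 to 144, n = 20 pools) and 6.9 CPM in the *Gata3*-GFP- fraction (1.83 to 12.5, n = 20), where CPM are the counts on a gene per 1000000 counts on all genes after TMM scaling over all 153 pools. *Ptprc*, which encodes CD45, stood at a median of 202 CPM (4.44 to 350) in the first and 421 CPM (285 to 637) in the second, and *Itga2b*, which encodes CD41, 226 CPM (9.31 to 1345) and 8.63 CPM (0.582 to 130). *Itga2b* in *Gata3*-GFP- HCs thus overlapped the ECs, which were sorted as CD41- and reached 7.8 CPM in *Gata3*-GFP- and 14.5 CPM in *Gata3*-GFP+ pools. *Cdh5* was at 261 to 710 CPM in *Gata3*-GFP- and 740 to 1708 CPM in *Gata3*-GFP+ ECs. *Pdgfrb*, the sorting gene of MCs, ran from 0.961 to 236 CPM (median 158) in *Gata3*-GFP- and 1.07 to 296 CPM (median 251) in *Gata3*-GFP+ MCs, and *Ngfr*, that of SNS cells, from 4.37 to 339 CPM (median 253) in *Gata3*-GFP- and 0.92 to 154 CPM (median 92.5) in *Gata3*-GFP+ SNS cells. In each of these 4 fractions 3 pools went against their label, with more *Ngfr* than *Pdgfrb* in pools labelled MC or more *Pdgfrb* than *Ngfr* in pools labelled SNS, and the results that rest on them are given with and without them. Depth ran from 1400824 to 16004756 counts on genes per pool. Other cell types also differed between the HC fractions. The 10 macrophage and monocyte markers summed to 64 to 10351 CPM (median 4211) in *Gata3*-GFP+ and 3543 to 7406 CPM (median 5423) in *Gata3*-GFP- HC pools, and the 7 megakaryocyte markers to 1627 to 58103 CPM and 145 to 3807 CPM. The 6 sympathetic markers reached 1153 CPM in *Gata3*-GFP+ and 8.65 CPM in *Gata3*-GFP- HC pools, and the 6 mesenchymal markers 640 CPM and 128 CPM. The part of these other cells in the HC comparison was not tested beyond leaving pools out. In *Gata3*-GFP- MCs *Gata3* ran from 2.6 to 398 CPM, beyond the 16.4 to 81 CPM of *Gata3*-GFP+ MCs. The SNS fractions overlapped in *Gata3* in part, with 11.2 to 95 CPM (median 45.8) in *Gata3*-GFP- and 10.2 to 309 CPM (median 171) in *Gata3*-GFP+ pools. The *Gata3*-GFP+ median thus lay above every *Gata3*-GFP- SNS pool. The EC fractions overlapped narrowly (4.37 to 29.3 CPM in *Gata3*-GFP- and 27.9 to 171 CPM in *Gata3*-GFP+ pools).

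*Gata3*-GFP- HC pools fell into 2 sets by *S100a8*. The level was 3.85 to 30.1 CPM in 10 pools and 263 to 15005 CPM in the other 10, with no pool between 30.1 and 263 CPM. Median and mean over the 20 pools were 146 CPM and 1723 ± 3446 CPM (SD), so a single mean describes neither set. *S100a9* ranged from 2.72 to 9777 CPM (median 29.6, mean 1150 ± 2277, n = 20), with its widest gap higher up, between 13 pools at or below 306 CPM and 7 at or above 1155 CPM. Of the 9 pools above 100 CPM of *S100a9*, 8 were also above 100 CPM of *S100a8*, a limit set after the values were seen. In the pool with the highest level, the 2 S100 genes took 2.42% of all counts on genes and the 10 genes 3.35%. In *Gata3*-GFP+ HCs, *S100a8* was 0 to 105 CPM (median 9.36, mean 13.8 ± 22.9, n = 20) and *S100a9* 0.196 to 43.3 CPM (median 5.29, n = 20). All 10 *Gata3*-GFP- pools of the upper set thus lay above every *Gata3*-GFP+ pool for *S100a8*, and the 10 pools of the lower set lay within the *Gata3*-GFP+ range. Because each pool is bulk RNA of 20 cells, fewer cells of a type and less RNA per cell cannot be told apart.

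**Figure D1:**
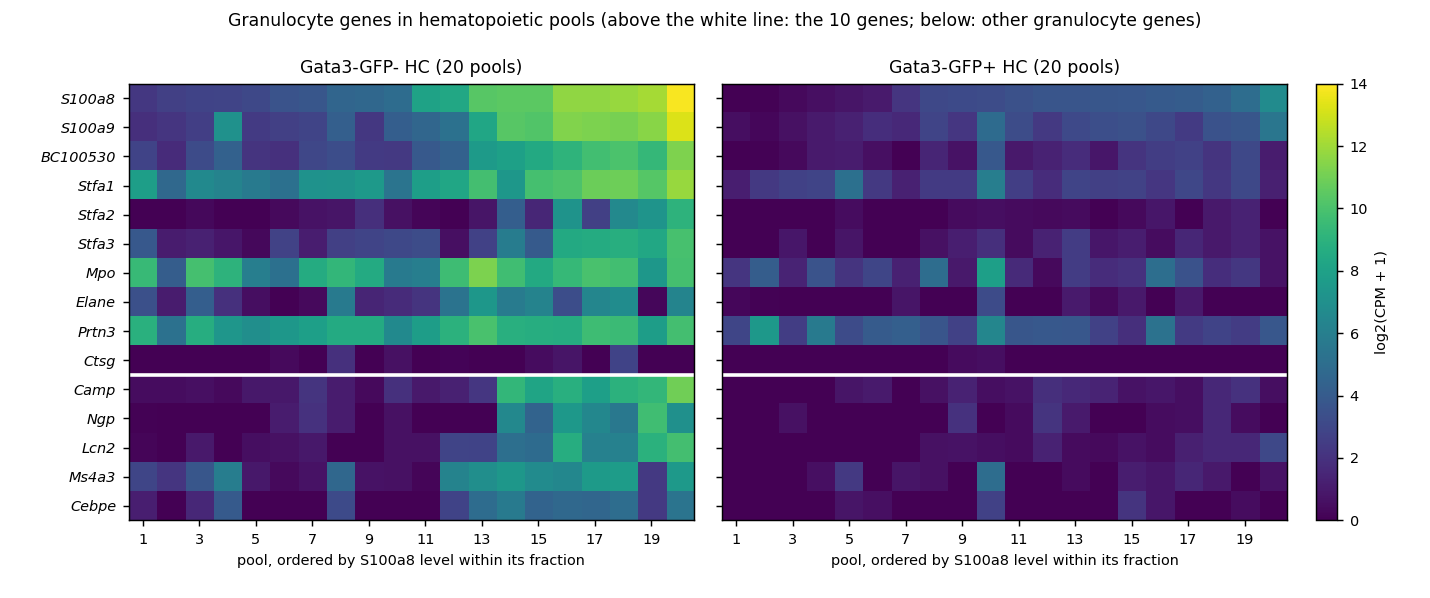
Level of the 10 genes and of 5 other granulocyte genes (rows) in each HC pool (columns, ordered by *S100a8* within each fraction of 20 pools), as log2(CPM + 1) on the color scale. *Gata3*-GFP- pools 11 to 20 hold 263 to 15005 CPM of *S100a8*, and *Camp* is bright in pools 14 to 20 only, while *Mpo* and *Prtn3* run across nearly all *Gata3*-GFP- pools.

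The stefins were high in pools of the upper *S100a8* set. *BC100530* had 195 to 2509 CPM in 8 *Gata3*-GFP- HC pools and 2.26 to 19.4 CPM in the other 12, and all 8 were pools of the upper *S100a8* set. *Stfa3* (0.22 to 978 CPM, median 6.78, mean 132 ± 252, n = 20) exceeded 100 CPM in 5 pools and *Stfa2* (0 to 533 CPM, median 0.651, mean 47.9 ± 124) in 3, again all from that set. *Stfa1* had a higher floor, at 25.2 to 3597 CPM (median 212, mean 664 ± 918), and exceeded 100 CPM in 14 pools, 10 of them from that set. Within the 10 pools of the upper set, the Spearman correlation of *S100a8* was 0.939 with *S100a9*, 0.964 with *BC100530*, 0.891 with *Stfa1*, 0.903 with *Stfa2* and 0.879 with *Stfa3*. Within the 10 pools of the lower set, it was 0.503, 0.0303, 0.0424, 0.832 and 0.261 in the same order, and the value for *Stfa2* there rests on levels of at most 2.64 CPM. These are descriptions over pools that share the tissue and the sort, on the log2(CPM + 1) scale.

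In *Gata3*-GFP+ HCs *Stfa1* was counted in every pool, and the other 3 stefins had medians of at most 1.08 CPM. *Stfa1* had 1.23 to 63.1 CPM (median 4.68, mean 8.87 ± 14.7, n = 20), which 16 of the 20 *Gata3*-GFP- pools exceeded. *BC100530* had 0 to 13.5 CPM (median 1.08, mean 2.49 ± 3.27), *Stfa3* 0 to 4.52 CPM (median 0.765, mean 0.988 ± 1.1) and *Stfa2* 0 to 1.52 CPM (median 0.151, mean 0.285 ± 0.406). At least 10 counts were reached in 14 *Gata3*-GFP+ HC pools for *Stfa1*, 6 for *BC100530*, 1 for *Stfa3* and 0 for *Stfa2*, against 20, 19, 14 and 6 of the 20 *Gata3*-GFP- pools.

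The azurophil granule genes *Mpo* and *Prtn3* were present in every *Gata3*-GFP- HC pool. Their widest gaps between pools were 1.42 and 1.41 on the log2(CPM + 1) scale, against 3.08 for *S100a8*. The gap of *Mpo* lay between 5 pools at or below 61.8 CPM and 15 at or above 167 CPM. That of *Prtn3* lay between 1 pool at 36.6 CPM and 19 at or above 98.8 CPM. *Mpo* had 16.6 to 2460 CPM (median 570, mean 595 ± 559, n = 20) and *Prtn3* 36.6 to 1003 CPM (median 391, mean 408 ± 273). *Elane*, neutrophil elastase, had 0 to 167 CPM (median 9.38, mean 35.9 ± 47.2) and reached 10 counts in 13 of the 20 pools. *Ctsg*, cathepsin G, reached 10 counts in 1 *Gata3*-GFP- HC pool, at 6.11 CPM, and 13 of the 20 pools had 0 counts of it. Its absence from most pools set it apart from the other 3 azurophil genes, with a median of 0 CPM in each of the 8 populations. In the 10 pools of the lower *S100a8* set *Mpo* still had 16.6 to 945 CPM (median 383) and *Prtn3* 36.6 to 465 CPM (median 204), while in the upper set they had 61.8 to 2460 CPM (median 820) and 221 to 1003 CPM (median 480). The ranges of the sets overlapped for both genes.

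*Mpo*, *Prtn3* and *Elane* had higher correlations with each other than with *S100a8*, given here as a description. Over the 20 *Gata3*-GFP- HC pools, the correlation of *Mpo* and *Prtn3* was 0.895 (Pearson, on log2(CPM + 1)) and 0.919 (Spearman), and 0.861 (Pearson) without the 2 pools farthest from the median of *Mpo*. For *Mpo* and *Elane* the values were 0.753, 0.817 and 0.724, and for *Elane* and *Prtn3* 0.794, 0.853 and 0.743. Over the same 20 pools, the values for *S100a8* were 0.44, 0.392 and 0.473 with *Mpo*, and 0.589, 0.478 and 0.721 with *Elane*. With *Prtn3* they were 0.618, 0.505 and 0.638. The third value leaves out the 2 pools farthest from the median of the gene named first. There, *S100a8* and *Elane* (0.721) came close to *Mpo* and *Elane* (0.724). *S100a8* and *Mpo* had a Spearman correlation of 0.224 within the upper set of 10 pools and −0.248 within the lower set. *Stfa1* went with different genes in the 2 sets. Within the lower set its Spearman correlation was 0.77 with *Mpo*, 0.842 with *Prtn3* and 0.0424 with *S100a8*, and within the upper set it was 0.345, 0.321 and 0.891.

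**Figure D2:**
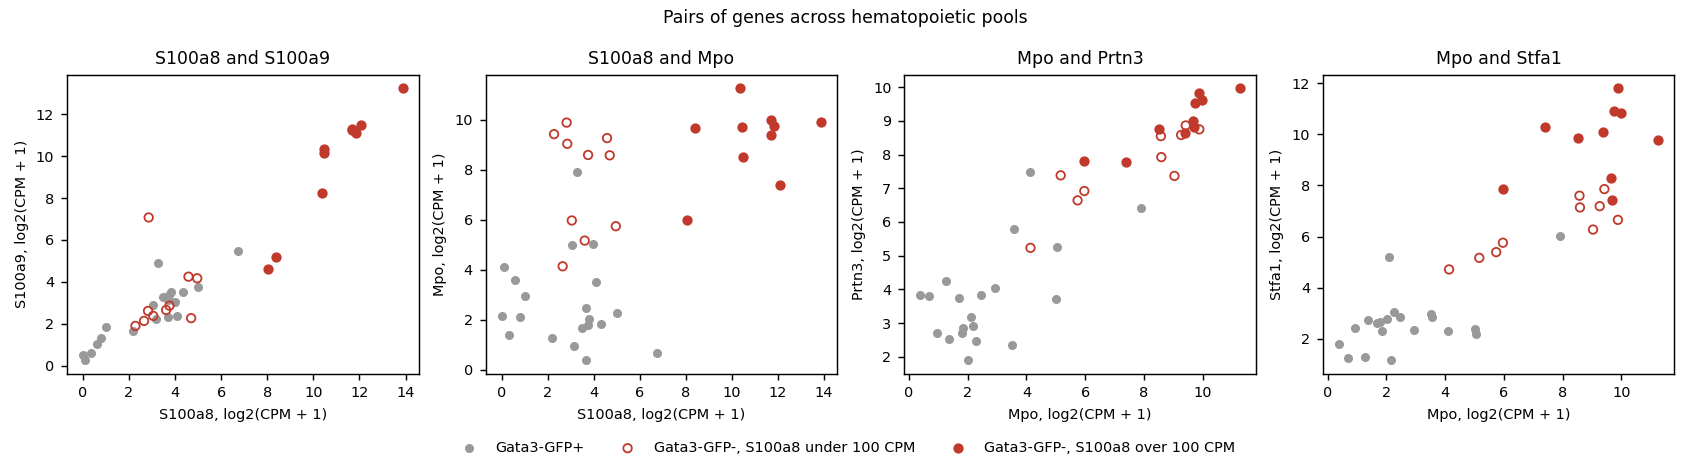
Pairs of genes across HC pools, each axis as log2(CPM + 1) and each point 1 pool (grey, *Gata3*-GFP+; open red, *Gata3*-GFP- pools with *S100a8* under 100 CPM; filled red, those over 100 CPM). *S100a8* and *S100a9* line up in the filled points (Spearman 0.939), *S100a8* and *Mpo* form no line (0.224 and −0.248 within the sets), and *Mpo* and *Prtn3* line up in both sets (0.952 and 0.842).

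Single pools showed the genes in different combinations. The *Gata3*-GFP- HC pool with the most *Mpo* (2460 CPM), *Elane* (167 CPM) and *Prtn3* (1003 CPM) had 1310 CPM of *S100a8* but 3.71 CPM of *Camp* and 0 CPM of *Ngp*, 2 specific granule genes. Another pool was its opposite, with 4347 CPM of *S100a8*, 608 CPM of *Camp*, 848 CPM of *Ngp* and 499 CPM of *Lcn2* beside 0.195 CPM of *Elane* and 167 CPM of *Mpo*. Another pool had 134 CPM of *S100a9* with 6.22 CPM of *S100a8*, the only *Gata3*-GFP- pool in which *S100a9* was above 100 CPM and *S100a8* below it. *Camp* itself was at 242 to 1991 CPM in 7 pools and at most 3.71 CPM in the other 13, and the 7 were all in the upper *S100a8* set. These pools were picked after their values were seen.

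Per kilobase of exon, which allows genes to be compared, the order of median levels in *Gata3*-GFP- HCs was *Stfa1* (299 CPM per kilobase), *Prtn3* (226), *S100a8* (211), *Mpo* (167), *S100a9* (56.7), *BC100530* (21.2), *Stfa3* (16.4), *Elane* (9.53), *Stfa2* (1.38) and *Ctsg* (0). The ranges over the 20 pools overlapped between all neighbors in this order. By the highest pool the S100 genes came first, at 21622 CPM per kilobase for *S100a8* and 18730 for *S100a9*, followed by *Stfa1* at 5067. In the 8 pools above 100 CPM of both S100 genes, the level of *S100a8* per exon base was 0.796 to 3.22 times that of *S100a9* (median 1.07). Exon bases were merged over all annotated transcripts, 694 for *S100a8* and 522 for *S100a9*. The coding transcripts have 486 and 519 bases, and by these lengths the ratio would be higher.

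For the HC fractions, the edgeR fit gave log2 fold changes of *Gata3*-GFP+ over *Gata3*-GFP- for 9 of the 10 genes, as *Ctsg* did not reach 10 counts in 5 pools. They were −6.91 (standard error 1.06) for *S100a8*, −7.08 (1.05) for *S100a9*, −7.18 (0.973) for *BC100530*, −6.28 (0.68) for *Stfa1*, −7.48 (1.24) for *Stfa2* and −7.14 (1.02) for *Stfa3*. The azurophil genes had −5.01 (0.706) for *Mpo*, −6.1 (0.879) for *Elane* and −4.01 (0.482) for *Prtn3*. Differences between these values were not tested. These values restate what the genes were picked for, and of all 16200 genes in this fit 9.53% were lower and 17.1% higher in *Gata3*-GFP+ HCs at the threshold (adjusted p under 0.01 and a log2 change beyond 0.1). Single pools moved the ratio of mean levels. For *S100a8* the ratio of the *Gata3*-GFP- to the *Gata3*-GFP+ mean (1723 to 13.8 CPM) became 74.4 without the highest *Gata3*-GFP- pool and 193 without the *Gata3*-GFP+ pool at 105 CPM. Without the highest *Gata3*-GFP- pool the ratio also went from 140 to 84.5 for *S100a9*, from 131 to 84.4 for *BC100530*, from 168 to 78.4 for *Stfa2* and from 134 to 88.5 for *Stfa3*. For *Elane* it was 58.7 times, and 166 times without 1 *Gata3*-GFP+ pool that held 8.12 CPM of *Elane*. That same pool had 240 CPM of *Mpo*, 63.1 CPM of *Stfa1* and 83.9 CPM of *Prtn3*, and without it the ratio for *Mpo* went from 31.5 to 82.1. It was also the *Gata3*-GFP+ HC pool with the highest sum of mast cell, basophil and eosinophil markers (1123 CPM, group median 4.38). By medians the ratio was 15.6 for *S100a8*, 5.6 for *S100a9*, 15.5 for *BC100530*, 45.4 for *Stfa1*, 4.3 for *Stfa2*, 8.86 for *Stfa3*, 168 for *Mpo* and 32 for *Prtn3*. That of *S100a8* also rests on single pools, since its *Gata3*-GFP- median lies in the empty stretch between 30.1 and 263 CPM and becomes one of these values when any *Gata3*-GFP- pool is left out.

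The spread between pools was large for these genes. The biological coefficient of variation, the edgeR estimate of the spread between pools beyond counting error, was 0.908 for *Prtn3*, 1.12 for *Stfa1*, 1.27 for *Mpo* and 1.52 to 2.17 for the other 6 genes in the fit. The median over all 16200 genes was 0.488, with the middle 90% between 0.193 and 1.87. *Stfa2* lay above 97.5% of genes and *Prtn3* above 74.1%.

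The genes were also low in *Gata3*-GFP+ HC pools rich in macrophage RNA, given as a description because they were picked in this comparison. In the 12 *Gata3*-GFP+ HC pools whose macrophage and monocyte markers summed to at least the lowest *Gata3*-GFP- pool (3543 CPM), *S100a8* was 0 to 30.9 CPM (median 7.63), *Stfa1* 1.23 to 7.24 CPM (median 4.76), *Mpo* 0.918 to 32 CPM (median 4.17) and *Prtn3* 4.12 to 54.3 CPM (median 9.32). In the other 8 pools the medians were 11, 4.53, 2.82 and 12.7 CPM in the same order. All 12 pools were below every *Gata3*-GFP- pool for *Stfa1*, and the highest of them for *Mpo* lay above the lowest *Gata3*-GFP- pool, at 16.6 CPM.

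ECs held these genes at low levels. *S100a8* had 0 to 37.3 CPM (median 9.79, mean 9.2 ± 8.8, n = 20 pools) in *Gata3*-GFP- ECs and 0.506 to 26.7 CPM (median 7.1, mean 9.11 ± 7.24, n = 19) in *Gata3*-GFP+ ECs. The medians of *Gata3*-GFP+ HCs and of both EC fractions were thus 7.1 to 9.79 CPM, with ranges that overlapped. For 9 of the 10 genes the mean in *Gata3*-GFP- ECs was 0.33% to 0.669% of the *Gata3*-GFP- HC mean, while for *Gata3*-GFP+ ECs it was 0.236% to 0.962%. The 5 macrophage genes (*C1qa*, *C1qb*, *C1qc*, *Adgre1* and *Csf1r*) stood at 0.787% to 1.15% and 0.654% to 1.25% of their *Gata3*-GFP- HC means in the same EC fractions. In *Gata3*-GFP+ HCs these 5 macrophage genes were at 58.9% to 102% of the *Gata3*-GFP- HC mean, and the 9 granulocyte genes at 0.595% (*Stfa2*) to 6.12% (*Prtn3*). The rest of the macrophage and monocyte markers varied more. Mean levels in *Gata3*-GFP+ and *Gata3*-GFP- HCs were 0.0554 and 5.09 CPM for *Ly6c2*, 244 and 484 for *Cx3cr1*, and 422 and 780 for *Mrc1*. They were 129 and 208 CPM for *Fcgr1* and 44.5 and 46.1 CPM for *Ccr2*. The source of the RNA in ECs was not tested.

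**Figure D3:**
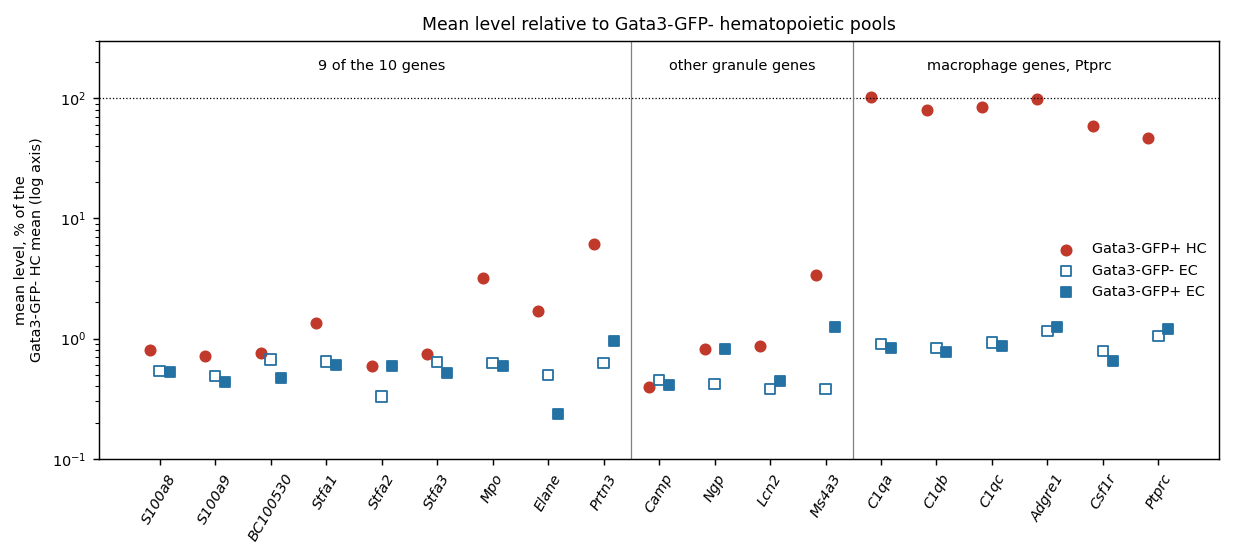
Mean level of 9 of the 10 genes, 4 other granule genes, 5 macrophage genes and *Ptprc* in *Gata3*-GFP+ HCs (circles), *Gata3*-GFP- ECs (open squares) and *Gata3*-GFP+ ECs (filled squares), as a percentage of the mean in *Gata3*-GFP- HCs on a log axis. In ECs the 9 genes lie between 0.236% and 0.962%, and in *Gata3*-GFP+ HCs they lie at 0.595% to 6.12% while the 5 macrophage genes shown lie at 58.9% to 102%. Other macrophage and monocyte markers are not shown.

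Between the EC fractions none of the genes passed the threshold. The comparison asks whether the genes change with *Gata3*-GFP outside the cells they were picked in. Of the 6 genes that passed the filter on low counts (*S100a8*, *S100a9*, *BC100530*, *Stfa1*, *Mpo* and *Prtn3*), 0 passed the quasi-likelihood test of edgeR (p adjusted by the Benjamini-Hochberg method), 0 had an unadjusted p under 0.05, and 0 passed DESeq2's Wald test or the study's own test, while 36% of the 15073 genes tested in ECs passed in either direction. The log2 fold change of *S100a8* in *Gata3*-GFP+ ECs was −0.06 (standard error 0.496, adjusted p = 0.926), with a 95% interval of −1.04 to 0.908. For *Mpo* it was −0.14 (standard error 0.403, interval −0.931 to 0.648, adjusted p = 0.794). The largest in size was that of *BC100530*, −0.57 (standard error 0.652, interval −1.85 to 0.706, adjusted p = 0.491). *Prtn3* was at 1.01 to 19 CPM in *Gata3*-GFP+ and 1.1 to 4.79 CPM in *Gata3*-GFP- ECs, and its change of 0.56 (standard error 0.367, interval −0.157 to 1.28) had the smallest adjusted p, 0.211. The intervals reach from −1.85 (*BC100530*) to 1.28 (*Prtn3*), so the fractions are not shown to be alike.

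MCs and SNS cells held few or no counts of all the genes but *Prtn3*. In *Gata3*-GFP- MCs and in *Gata3*-GFP- SNS cells 8 of the 10 genes had 0 counts in every pool, and in both *Gata3*-GFP+ fractions 6 had none. A count of 0 allows at most 0.0445 CPM in *Gata3*-GFP- MCs and 0.0331 CPM in *Gata3*-GFP- SNS cells (3 counts of all counts on genes, for counting error only). *Mpo* reached 3.31 CPM in 1 *Gata3*-GFP- MC pool and had a median of 0 CPM in the 4 fractions. *Prtn3* was the exception, with 1.32 to 17.8 CPM (median 5.65, n = 17) in *Gata3*-GFP- MCs, 0 to 8.18 CPM (median 5.16, n = 20) in *Gata3*-GFP+ MCs, 0 to 9.16 CPM (median 1.56, n = 19) in *Gata3*-GFP- SNS cells and 0 to 10.8 CPM (median 1.87, n = 18) in *Gata3*-GFP+ SNS cells. In *Prtn3*, 9.18% of the exon bases lie opposite exons of *Plppr3*, which had a median of 36.7 CPM in *Gata3*-GFP- MCs, 42.8 CPM in *Gata3*-GFP+ MCs, 26.9 CPM in *Gata3*-GFP- SNS cells and 31.2 CPM in *Gata3*-GFP+ SNS cells. In ECs its median was 1.35 CPM in the *Gata3*-GFP- fraction and 4.36 CPM in the *Gata3*-GFP+ fraction. Smart-seq2 reads do not keep the strand. The *Prtn3* medians in ECs were 2.21 CPM in the *Gata3*-GFP- and 1.82 CPM in the *Gata3*-GFP+ fraction. The share of *Plppr3* in these *Prtn3* counts was not tested. *Prtn3* did not pass between the fractions of MCs (log2 fold change −0.77, standard error 0.431, adjusted p = 0.291 in edgeR, with 4.36% of 16026 genes called) or of SNS cells (−0.14, standard error 0.607, adjusted p = 0.93, with 3.87% of 16143 genes called). Without the 3 pools of each fraction that went against their label, a choice made after seeing the data, the log2 fold change of *Prtn3* was −0.9 in MCs (standard error 0.422, adjusted p = 0.15 in edgeR, with 10.4% of 15226 genes called) and −0.15 in SNS cells (standard error 0.659, adjusted p = 0.914, with 10.4% of 15658 genes called). The medians of *Prtn3* were then 7.34 CPM in *Gata3*-GFP- MCs, 5.14 CPM in *Gata3*-GFP+ MCs, 1.49 CPM in *Gata3*-GFP- SNS cells and 0.833 CPM in *Gata3*-GFP+ SNS cells, and the counts of genes at 0 in every pool stayed at 8 and 6.

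**Figure D4:**
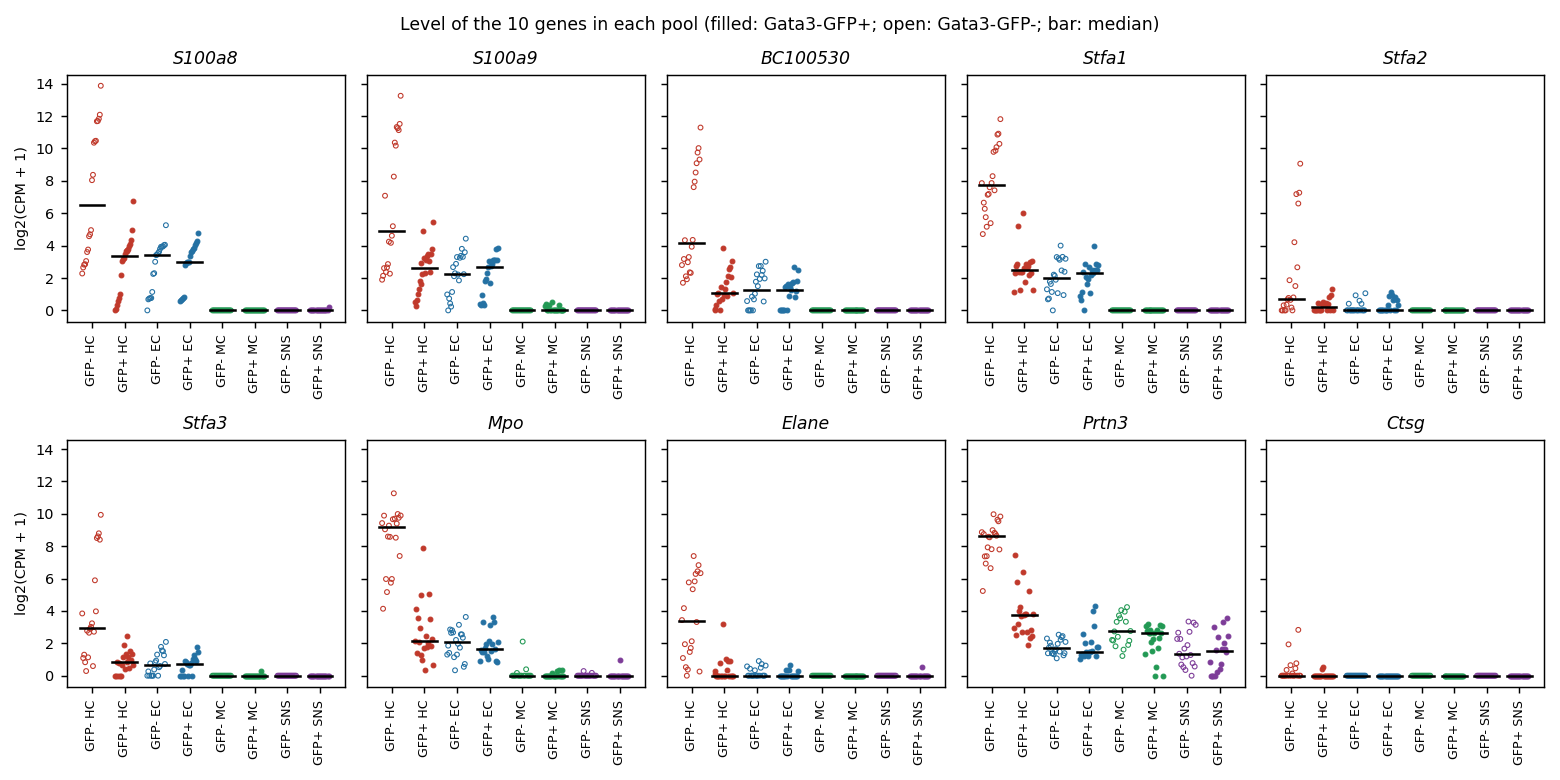
Level of each of the 10 genes in each pool of the 8 populations as log2(CPM + 1), with 1 point a pool (open, *Gata3*-GFP-; filled, *Gata3*-GFP+) and a bar at the median. *Gata3*-GFP- HC pools reach 15005 CPM of *S100a8*, ECs at most 37.3 CPM, and MCs and SNS cells hold only *Prtn3* at medians above 0.

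Ordered by median, *Gata3*-GFP- HCs came first among the 8 populations for the 9 genes other than *Ctsg*, and for *Ctsg* they had the highest mean (0.548 CPM). Their place above *Gata3*-GFP+ HCs restates how the genes were picked. With equal medians ordered by the mean, *Gata3*-GFP+ HCs and both EC fractions followed for 8 genes. For *Prtn3* both MC fractions stood above the ECs, and *Ctsg* had 0 counts in every population but the HCs. Each population overlapped the next in this order for all 10 genes with 1 exception, the step in *S100a8* from *Gata3*-GFP+ ECs (lowest pool 0.506 CPM) down to *Gata3*-GFP+ SNS cells. Populations with pools at 0 on both sides of a step overlap by construction, and the share of overlaps over all genes was not taken.

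Other genes of granulocytes were counted in the HC fit, from lists drawn up with earlier results of these data known. Of 23 other genes of granules and effector functions, 19 were tested, and 16 were lower and 0 higher in *Gata3*-GFP+ HCs, with 9.53% and 17.1% of all genes as background. The median log2 fold change was −1.92, and 0.0488 over all genes. *Mmp9* (0.353), *Srgn* (0.0442) and *Itgb2* (0.156) did not pass the threshold. *Ltf*, *Chil3*, *Cd177* and *Retnlg* did not pass the filter, with medians of 0.296, 0, 0.0509 and 0 CPM in *Gata3*-GFP- HCs. *Chil3* reached 70.7 CPM in 1 *Gata3*-GFP+ HC pool and at most 0.736 CPM in *Gata3*-GFP- HC pools. The specific granule genes *Camp* (−8.05, standard error 1.2, adjusted p = 1.09e-06) and *Ngp* (−6.93, standard error 1.2, adjusted p = 1.32e-05), *Lcn2* (−6.58, standard error 1.12, adjusted p = 9.72e-06) and the promyelocyte membrane gene *Ms4a3* (−5.07, standard error 0.897, adjusted p = 1.72e-05, all from edgeR) fell most. In this order they reached 10 counts in 11, 8, 9 and 13 *Gata3*-GFP- HC pools. In *Gata3*-GFP+ HC pools the numbers were 0, 2, 1 and 2. They passed the filter only through *Gata3*-GFP- pools and could hardly come out as higher, which limits what the counts by direction show. Of 19 regulators and growth factor receptors of the granulocyte line, 17 were tested, 9 were lower and 0 higher (median −1.18). *Cebpe*, a transcription factor needed for late granulocyte maturation, fell by 4.59 (standard error 0.913, adjusted p = 9.1e-05 by edgeR), the chemokine receptor gene *Cxcr2* by 2.26 (standard error 0.558, adjusted p = 0.00122), *Myb* by 1.88 (standard error 0.379, adjusted p = 0.000108) and *Cebpd* by 1.76 (standard error 0.301, adjusted p = 9.94e-06). The same limit holds for *Cebpe* and *Cxcr2*, which reached 10 counts in 12 and 19 *Gata3*-GFP- and in 2 and 3 *Gata3*-GFP+ HC pools. Of the 10 macrophage and monocyte markers, 3 were lower and 0 higher, with a median change of −0.513, and all 7 megakaryocyte markers were higher.

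The relatives and partners of the members were less uniform, and their counts are to be read against the same 17.1% higher and 9.53% lower of all genes. With 1 call each way, the lists of other S100 genes and of binding partners were near that background. Of 11 other stefins and cystatins 9 were tested and 7 were lower, among them *Gm5483* (−7.68), *Stfa2l1* (−7.6), *Gm5416* (−6.73) and *BC117090* (−6.4), stefin genes of the same chromosome 16 run, where edgeR gave adjusted p = 3.58e-07, 1.53e-06, 1.81e-07 and 1.3e-08. In the same order they reached 10 counts in 12, 9, 11 and 12 *Gata3*-GFP- HC pools, and in 0 *Gata3*-GFP+ HC pools. They too passed the filter only through *Gata3*-GFP- pools and could hardly come out as higher. Of 8 other genes of the S100 list tested, 1 was higher (*S100a16*, 2.65, standard error 0.418) and 1 lower (*S100a13*, −0.43, standard error 0.131), with a median of 0.496. Of 7 genes for proteins that bind S100A8 or S100A9, such as the receptor TLR4, 1 was higher (*Bsg*, 0.23) and 1 lower (*Cd33*, −1.41). Of 5 cysteine cathepsins, the targets of stefins, 2 were lower, *Ctsc* by 0.885 and *Ctss* by 0.832, and 0 higher. *Ctsc* encodes the protease that activates the granule serine proteases. Of 5 inhibitors of serine proteases tested, *Wfdc21* (−6.89) and *Serpinb1a* (−2.14, also on the list of granule genes) were lower and 0 were higher. *Wfdc21* reached 10 counts in 7 *Gata3*-GFP- and 0 *Gata3*-GFP+ HC pools, so it too could hardly come out as higher. Under other scalings or pool sets the single calls among the other S100 genes and the binding partners, and those of the cathepsins, did not all hold.

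**Figure D5:**
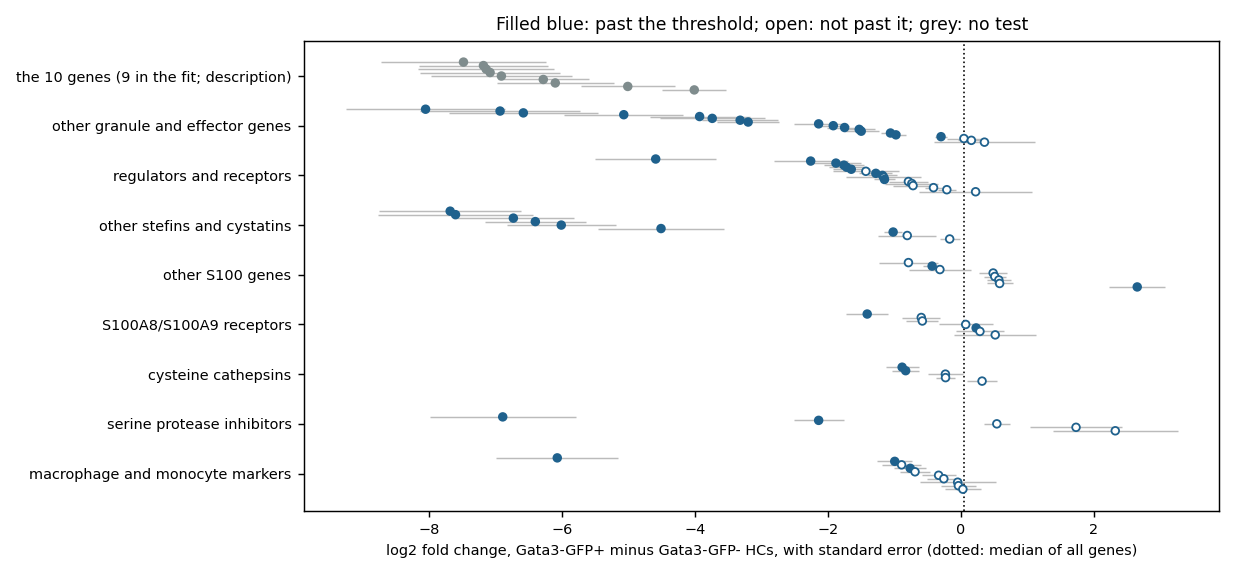
Log2 fold change of *Gata3*-GFP+ over *Gata3*-GFP- HCs (x axis, bars are standard errors) for 9 of the 10 genes and for the genes of 8 lists (filled blue, past the threshold; open, not past it; grey, given with no test). The granule and stefin lists reach −8.05 and −7.68, while the other S100 genes have a median of 0.496 and lie on both sides of the median of all genes (dotted line at 0.0488).

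These counts were recomputed with *Gata3*-GFP+ pools that stood apart left out, a choice made after seeing the data. Without the 8 *Gata3*-GFP+ HC pools in which macrophage markers lay below every *Gata3*-GFP- pool, 15 of 19 of the other granule and effector genes, 9 of 17 of the regulators and 7 of 9 of the stefins and cystatins were lower, with 6.51% of all genes lower in that fit. In that fit the log2 fold change was −7.64 for *S100a8*, −7.18 for *Stfa1*, −6.05 for *Mpo* and −4.83 for *Prtn3*. Without the 6 *Gata3*-GFP+ HC pools with over 100 CPM of sympathetic markers the counts were 15, 9 and 7, with 9.04% of all genes lower.

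The genes whose level ran most like that of *S100a8* across the 20 *Gata3*-GFP- HC pools, among 13864 genes, were *Gm5483* (Spearman 0.926), *BC117090* (0.914), *Fcnb* (0.89), *Camp* (0.886) and *Wfdc21* (0.863). Of these, *Gm5483* and *BC117090* are stefin genes and *Fcnb* encodes a ficolin of neutrophil granules. For *Mpo* they were *Srgn* (0.817), the proteoglycan core of granules, *Plac8* (0.811), *Palm* (0.808), *Ms4a3* (0.8) and *Gsr* (0.797), the glutathione reductase gene. For *Elane* they were *Ms4a3* (0.845), *Cebpe* (0.807), *Tmed3* (0.806), *Atp8b4* (0.765) and *Cldn15* (0.764). *Ms4a3* was shared by *Mpo* and *Elane*, and no gene was shared with *S100a8*. *Srgn*, *Plac8* and *Gsr* had at least 10 counts in all 20 pools, whereas *Gm5483* had them in 12 and *Wfdc21* in 7.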

How the data were processed

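Smart-seq2 libraries of 20-cell pools were sequenced as single-end reads, and the deposited table holds raw counts per Ensembl gene made by the authors. The submitters' processing notes name GSNAP, HTSeq 0.5.3p3 and mm10, whereas the methods of the study name STAR and HT-Seq, so the aligner is uncertain. Pools needed over 500000 reads on genes and ERCC spike-ins, over 20% of reads on genes, and under 20% each on mitochondrial genes and spike-ins, which 153 of 160 passed (1400824 to 16004756 counts on genes). Rows naming no gene stayed out (a median of 16.3% of reads was ambiguous). *Gata3*-GFP+ and *Gata3*-GFP- pools were compared within each cell type with edgeR 4.0.16 (R 4.3.3; TMM, quasi-likelihood test, a filter of 10 or more counts in 5 or more pools, Benjamini-Hochberg adjusted p under 0.01 and log2 fold change beyond 0.1). Levels are CPM with TMM factors over all passing pools. DESeq2 1.42.0, scran 1.30.0 and scanpy 1.11.5 gave alternatives. The fit was tested on simulated data: in ECs, 120 of 189 changed genes among 14569 were called, with 2 false calls, and 51.6% of 2-fold and 75.5% of 4-fold changes were recovered. Simulated pools were drawn independently, whereas the pools sequenced share embryos, so the simulation cannot give the rate of false calls in these data. Members and lists were chosen with earlier results of these data known. Examples of change from a list are at most its 4 largest changes in each direction past the threshold, and the genes most like *S100a8*, *Mpo* or *Elane* are the 5 with the highest Spearman correlation.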

Additional observations from a re-analysis of the deposited data

Results flagged for a closer look

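One *Gata3*-GFP+ EC pool outside the quality limits, which entered no comparison, held 6 of the genes above every *Gata3*-GFP+ EC pool within the limits. It had 48731 counts on genes, with 226 CPM of *S100a8* (11 counts), 82.1 CPM of *S100a9* (4 counts), 123 CPM of *Stfa1* (6 counts), 308 CPM of *Mpo* (15 counts) 144 CPM of *Prtn3* (7 counts) and 20.5 CPM of *Stfa3* (1 count). The highest pool within the limits had 26.7 CPM of *S100a8*, 13.5 CPM of *S100a9*, 14.4 CPM of *Stfa1*, 11.6 CPM of *Mpo*, 19 CPM of *Prtn3* and 2.45 CPM of *Stfa3*. These values rest on few counts, and their cause was not tested.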

How the results depend on the processing

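No gene of the 10 was called in ECs, MCs or SNS cells under any alternative run. *Gata3*-GFP- HCs kept the highest mean for each, which the choice of the genes favors. Of the counts over the other lists in HCs under alternatives, 105 stayed within 1.5 times, 13 were lower and 8 higher than that. The count of other S100 genes lower in *Gata3*-GFP+ HCs went from 1 to 0 with DESeq2 or ERCC size factors, with DESeq2's Wald test and without either set of *Gata3*-GFP+ pools, and to 2 with the test with overestimated variance. The count higher went from 1 to 3 with DESeq2 size factors and 4 with DESeq2's Wald test. The count of S100 binding partners higher went from 1 to 0 with ERCC size factors, the overestimated variance, no filter on low counts and without either set of pools. Cathepsins lower went from 2 to 1 with ERCC size factors and without the pools low in macrophage markers, where 1 became higher, and to 0 without the pools with sympathetic markers. Protease inhibitors higher went from 0 to 1 with DESeq2's Wald test and without either set of pools, and other granule genes higher from 0 to 1 with no filter. The Spearman correlation of *S100a8* and *S100a9* went from 0.908 over all 20 *Gata3*-GFP- HC pools to 0.503 in the lower set, that of *S100a8* and *Mpo* from 0.392 to 0.224 in the upper and −0.248 in the lower set, and that of *Stfa2* and *Stfa3* from 0.814 to 0.419 in the lower set. The causes were not tested. The limit of over 8000 genes per pool removed no passing pool. No paired analysis was possible because the column headers carry no pool numbers. Intervals and limits cover counting error or the spread between pools only. *Ctsg* had few counts in every population, and *Stfa2* and *Elane* few outside *Gata3*-GFP- HCs, so small differences in them were not detectable.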
